A study of Homo sapiens with 8 samples.

Results

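The p53 target genes described here are 36 genes known to be switched on by the tumour suppressor p53. The rule that selects them is a list of symbols and uses no measured value, although the list was drawn up with earlier results of these data known. All 36 were found by symbol among the 60564 genes of the count table. The data are RNA sequencing of AB8/13, a human podocyte line that is expanded at 33 °C and was moved to 37 °C for 5 days to differentiate. Control cells were transfected with a non-targeting shRNA and ATOH8 knockdown cells with an shRNA against ATOH8, a basic helix-loop-helix transcription factor, both with a lipid reagent. Poly(A) RNA was sequenced from 4 libraries in each group. The comparison asks how expression differs between these groups. All 8 libraries come from 1 immortalised line, and no text states the number or sequence of the shRNAs, so a difference belongs to the shRNA-treated cells as a group.

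The protein p53 is a transcription factor that is held low by its own target MDM2, a ubiquitin ligase, and is stabilised by DNA damage and other stress. It then binds DNA as a tetramer and raises genes that stop the cell cycle, repair DNA, adjust metabolism or start apoptosis. Many mitotic genes fall indirectly, through the inhibitor p21 and the repressor complex DREAM. Conditionally immortalised podocytes of this kind carry a temperature-sensitive large T antigen, a viral protein that binds p53 at the permissive temperature, so p53 activity in this line also depends on how far large T is inactivated. Large T itself was not analysed here.

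The letters that p53 prefers can be looked for in the members' promoters. The p53 consensus is a pair of 10-base half-sites, here without a spacer, and each half-site reads the same on both strands. Windows of 300 bases, from 250 before to 50 after a gene's start, were searched in RefSeq promoter sequences (GRCh38.p14), with at most 3 mismatches and the C and G of each half-site core fixed. Such a match was found in 7 of the 28 members with a window (25%) and in 373 of all 27305 genes with a window (1.37%). The members were chosen as known targets of p53, so this share is a description and no test. TNFRSF10B, TNFRSF10C, TP53INP1, RRM2B, PHLDA3, GADD45A, CMBL and FBXO22 had no window. The matches are shown because their letters can be set beside the changes below, with the 20-base match in capitals and its flanks in lower case.
DDB2, 1 mismatch: gctccAAGCTGGTTTGAACAAGCCCtgggc
AEN, 2 mismatches: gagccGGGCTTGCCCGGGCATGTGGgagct
FAS, 2 mismatches: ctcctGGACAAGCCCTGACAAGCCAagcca
MDM2, 2 mismatches: gagctGGTCAAGTTCAGACACGTTCcgaaa
FDXR, 3 mismatches: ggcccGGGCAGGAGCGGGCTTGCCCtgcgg
GDF15, 3 mismatches: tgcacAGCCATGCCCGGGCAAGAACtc
SESN1, 3 mismatches: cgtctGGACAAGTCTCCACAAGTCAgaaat

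On the plus strand these matches lie at chr11:47214969-47214988 (DDB2), chr15:88621306-88621325 (AEN), chr10:88991309-88991328 (FAS), chr12:68808923-68808942 (MDM2) and chr19:18386186-18386205 (GDF15). On the minus strand they lie at chr17:74872996-74873015 (FDXR) and chr6:109009018-109009037 (SESN1). The DDB2 match spans the start site and the GDF15 match lies within the transcribed part, and the other 5 lie before the start used. A match in such a window is a string of letters, not a measured binding site.

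Total counts ran from 21108695 to 27109043 per library. Levels below are in CPM, the counts of a gene scaled to the size of its library with TMM factors. Calls are at an adjusted p under 0.05 in edgeR's quasi-likelihood test over 16884 tested genes. ATOH8 itself (ENSG00000168874.13, chromosome 2) had 175, 160, 122 and 128 counts in control and 51, 71, 61 and 53 in knockdown libraries. That left 41.6% of the control level (log2 fold change -1.26, SE 0.127, edgeR adjusted p = 1.78e-09). Every knockdown library lay below every control library. The groups differed widely, with 51.1% of tested genes called. Of the podocyte markers, NPHS1 (nephrin), which defines the mature cell, had at most 6 counts in a library. The summed level of 9 podocyte markers ran from 878.5 to 897.6 CPM in control and from 711.5 to 761.7 CPM in knockdown libraries. Of the 6 tested, SYNPO and NES rose and KIRREL1, CD2AP and PODXL fell. KIRREL1 (means 625.6 in control and 489.1 CPM in knockdown) and CD2AP (226.6 and 189.2 CPM) made up most of the sum. For 8 mesangial and pericyte markers the sum ran from 38.7 to 41.7 against 99.3 to 115.5 CPM, with PDGFRB, NOTCH3 and CSPG4 higher and RGS5 lower of 4 tested. CSPG4 alone went from 22.8 to 83.4 CPM on average. For 8 endothelial markers the sum ran from 24.7 to 27.6 against 36.1 to 38.8 CPM, most of it EHD3 (means 24.7 and 34.8 CPM). VWF, TEK and EHD3 rose among 4 tested, and PECAM1, KDR, EMCN and CLDN5 had at most 3 counts in a library. VWF (means 0.43 and 0.86 CPM) and TEK (0.27 and 0.76 CPM) were near the floor. For 8 leukocyte markers the sum ran from 76.7 to 85.5 against 102.6 to 113.6 CPM, most of it CD68 (means 79.3 and 105.8 CPM). CD68 and ITGAM rose among 4 tested, and PTPRC, LYZ, CD3E and MS4A1 had at most 3 counts in a library. ITGAM (means 0.19 and 1.14 CPM) was near the floor. Sums were 4.50 to 7.17 against 2.41 to 2.84 CPM for proximal tubule (1 higher and 1 lower of 2 tested) and 1750.0 to 1765.0 against 2002.0 to 2066.0 CPM for parietal epithelium (3 higher and 1 lower of 6 tested). The part of these shifts in the results below was not tested. In bulk RNA, fewer cells of a type and less RNA per cell cannot be told apart.

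Most p53 target genes were higher in ATOH8 knockdown, by modest amounts. All 36 members had enough counts to test, and 30 rose, 1 fell and 5 were not called. Among all genes tested, 25.2% were called higher and 25.9% lower. Among the 11340 genes in the abundance range of the members, 60.6% were called, 27.3% higher and 33.3% lower. The median log2 change of the members was 0.39, against -0.001 over all genes tested, and it ran from -0.30 to 0.82. A rise of at least 0.5 on the log2 scale was called for 12 members. Such a rise was called for 8.05% of all genes tested and 3.52% of genes in that abundance range. The groups did not overlap in 30 members, 28 of them higher and 2 lower (DRAM1 and TNFRSF10B). Of all genes tested, 45.6% did not overlap (22.4% higher, 23.2% lower), and in the abundance range 54.3% (24.3% higher, 29.9% lower). The list was described with earlier results of these data known, so these counts carry no test of their own.

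**Figure D1:**
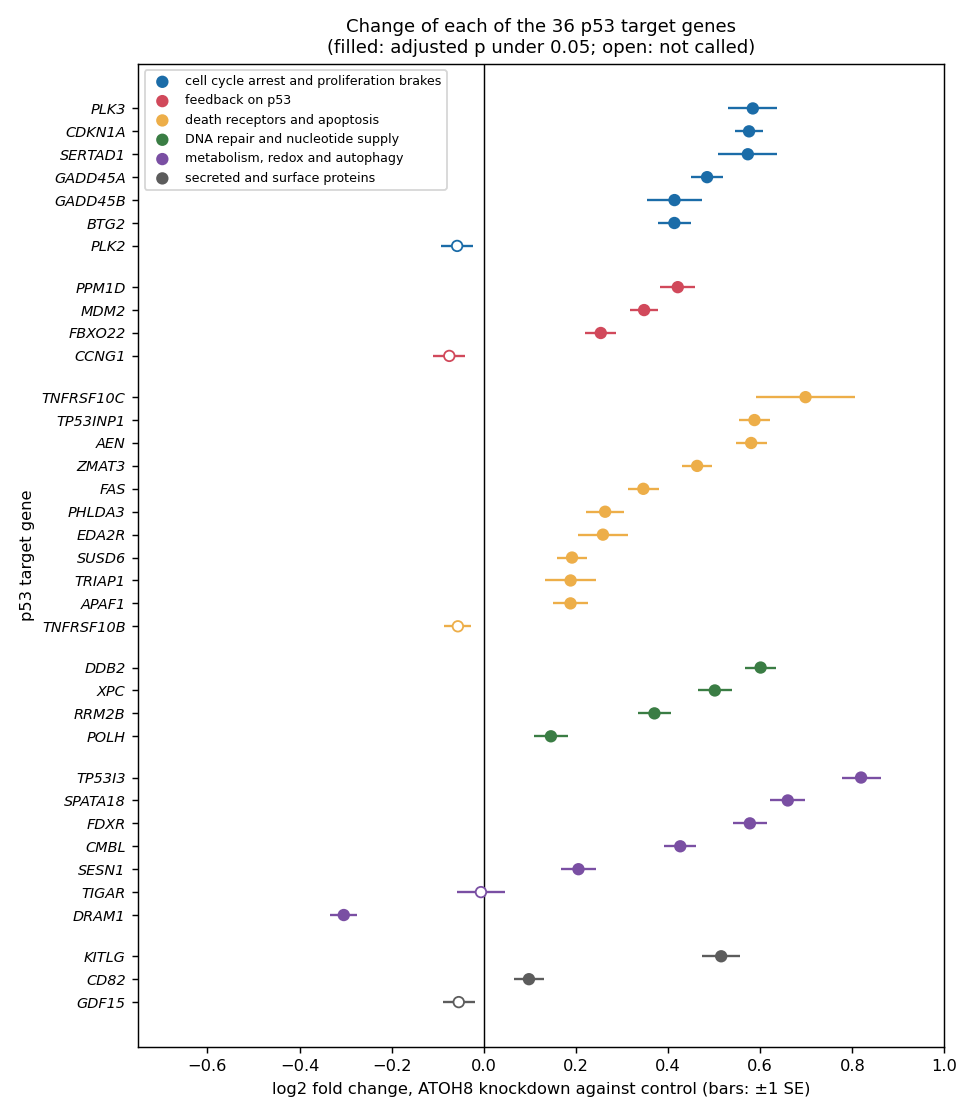
Log2 fold change of ATOH8 knockdown against control (x axis) for each of the 36 members (y axis), coloured by role, with bars of ±1 SE. Filled points passed the test and open points did not. TP53I3 has the highest value, DRAM1 is the only called fall, and every role holds members that rose.

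The rise was present in each knockdown library. The median over the members of the log2 difference from the control mean (0.5 CPM added) was 0.36, 0.39, 0.33 and 0.38 in knockdown replicates 1 to 4. In control libraries, each set against the other 3, the same median ran from -0.039 to 0.022. Between 29 and 32 of the 36 members lay above the control mean in a knockdown library, against 8378 to 8581 of all 16884 genes tested. Control replicates 1 to 4, each set against the remaining controls, had 11, 9, 27 and 25 members above. The rise was therefore seen in all 4 knockdown libraries.

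**Figure D2:**
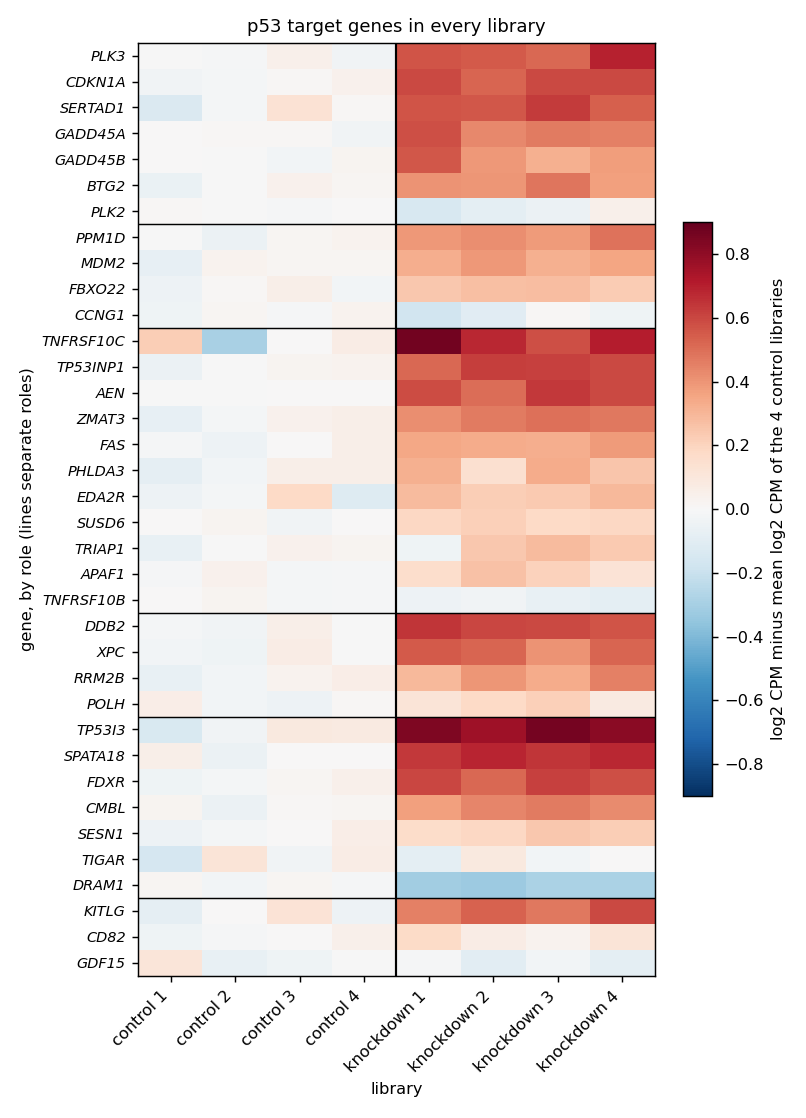
Colour shows log2 CPM minus the mean log2 CPM of the 4 control libraries, for the 36 members (rows, by role) in the 8 libraries (columns). Red cells fill the knockdown columns in most rows, DRAM1 is blue in all 4, and PLK2, CCNG1, TNFRSF10B, TIGAR and GDF15 stay pale.

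Of 7 genes grouped for roles in the cell cycle and proliferation, 6 rose and PLK2 was not called. Over all genes tested, 25.2% were called higher. Counts by role, here and below, rest on few genes. CDKN1A encodes p21, the inhibitor of cyclin-dependent kinases that carries out much of the p53 arrest. It measured 962, 972, 994 and 1012 CPM in control replicates 1 to 4 and 1487, 1414, 1486 and 1484 CPM in knockdown replicates 1 to 4. The groups were far apart, and the rise was 1.49-fold (log2 0.58, SE 0.031, edgeR adjusted p = 2.56e-15). GADD45A, a stress sensor that binds p21 and the replication clamp, measured 115.2, 115.8, 115.5 and 112.5 CPM in control and 171.5, 154.6, 158.7 and 157.5 CPM in knockdown libraries. Knockdown replicate 1 was the highest, and all 4 lay above control (log2 0.48, SE 0.035, edgeR adjusted p = 1.51e-12). BTG2, an antiproliferative factor that promotes removal of poly(A) tails, measured 65.3, 68.0, 70.1 and 68.9 CPM in control and 90.2, 89.5, 95.0 and 88.0 CPM in knockdown. Its groups did not overlap (log2 0.41, SE 0.036).

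Scarcer genes of this role moved by similar folds. SERTAD1, a regulator of cyclin D and CDK4, measured 11.02, 11.9, 13.2 and 12.2 CPM in control and 17.9, 17.7, 18.6 and 17.5 CPM in knockdown libraries. Its rise was 0.57 on the log2 scale (SE 0.064, edgeR adjusted p = 1.34e-08), with no overlap. GADD45B, the paralogue of GADD45A, rose by 0.41 on the log2 scale (SE 0.060), from 14.9 ± 0.207 to 19.9 ± 1.45 CPM (SD, n = 4). PLK3, a stress-responsive polo-like kinase, measured 18.5, 18.3, 19.1 and 18.1 CPM in control and 27.3, 27.1, 26.4 and 29.9 CPM in knockdown libraries. It rose 1.499-fold (log2 0.58, SE 0.053, edgeR adjusted p = 2.25e-10).

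The related kinase gene PLK2 differed from PLK3. PLK2 measured 538.1, 532.5, 530.6 and 535.6 CPM in control and 482.3, 503.8, 514.2 and 552.4 CPM in knockdown libraries, so knockdown replicate 4 lay above all controls and the others below. It was not called (log2 -0.06, SE 0.034, edgeR adjusted p = 0.16), but was called lower without knockdown replicate 4 (log2 -0.10, edgeR adjusted p = 0.0151). The log2 ratio of PLK3 to PLK2 was 0.63 higher in knockdown than in control libraries. An exact two-sided permutation test over 70 assignments gave p = 0.0286, the smallest possible for 4 against 4 libraries. All 3 such gene pairs tested gave this same exact p, so adjustment over them could not change it. These pairs were chosen after their values were seen, so the test adds no support.

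Of 4 genes that feed back on p53, 3 rose, against 25.2% called higher over all genes tested. MDM2 measured 669, 719, 712 and 709 CPM in control and 882, 919, 876 and 898 CPM in knockdown libraries. Control replicate 1 was the lowest, and the groups did not overlap (1.27-fold, log2 0.35, SE 0.031, edgeR adjusted p = 1.80e-10). PPM1D, the phosphatase WIP1 that removes activating phosphates from p53, rose from 56.8 ± 1.48 to 76.0 ± 2.57 CPM (log2 0.42, SE 0.038). FBXO22, an F-box protein of a ubiquitin ligase, rose by 0.25 on the log2 scale (SE 0.034). CCNG1, cyclin G1, which acts with a phosphatase on MDM2, was not called at 233.1 ± 4.95 and 221.3 ± 12.2 CPM (SD, n = 4, log2 -0.07, SE 0.035, edgeR adjusted p = 0.0757). It was called lower without control replicate 1 (edgeR adjusted p = 0.0489) or without knockdown replicate 3 (0.0151).

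Of 11 death receptor and apoptosis genes, 10 rose and TNFRSF10B was not called, beside 25.2% called higher over all genes tested. AEN, an exonuclease that cuts DNA during apoptosis, measured 94.1, 94.2, 94.4 and 94.5 CPM in control and 141.4, 133.8, 146.5 and 142.5 CPM in knockdown libraries. Its controls were almost identical, and the rise was 1.495-fold (log2 0.58, SE 0.034, edgeR adjusted p = 1.65e-14). TP53INP1, which promotes p53 activation and autophagy, measured 143.0, 147.7, 151.2 and 151.5 CPM in control and 212.5, 228.2, 227.3 and 223.4 CPM in knockdown libraries. It rose 1.503-fold (log2 0.59, SE 0.033, edgeR adjusted p = 6.78e-15). ZMAT3, a zinc finger protein that regulates splicing and mRNA stability, rose by 0.46 (SE 0.033) on the log2 scale.

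Of the group, 6 further genes rose by smaller amounts. FAS, the receptor for FAS ligand, rose from 93.2 ± 2.54 to 118.5 ± 2.24 CPM (log2 0.35, SE 0.034). PHLDA3, which restrains AKT, was up by 0.26 in log2 terms (SE 0.041). EDA2R, the receptor for ectodysplasin A2, was up by as much (log2 0.26, SE 0.054). APAF1, the scaffold of the apoptosome, and SUSD6, a membrane protein that restrains growth, each rose by 0.19. TRIAP1, an inhibitor of apoptosis, rose by 0.19 (SE 0.056, edgeR adjusted p = 0.00801), and its groups overlapped because knockdown replicate 1 lay at 40.6 CPM. FAS overlaps exons of ACTA2 on the opposite strand in GENCODE 29. No source used here says whether reads were counted by strand. ACTA2 rose by 0.33 on the log2 scale and had 60.9% as many counts as FAS, so reads of the 2 genes could not be separated with certainty.

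The receptors for the death ligand TRAIL, all encoded on chromosome 8, moved unequally. TNFRSF10C is a decoy receptor without a death domain, and TNFRSF10B is the death receptor DR5. TNFRSF10C measured 5.36, 3.75, 4.61 and 4.81 CPM in control and 8.39, 7.34, 6.89 and 7.48 CPM in knockdown libraries. It rose 1.62-fold (log2 0.70, SE 0.107, edgeR adjusted p = 2.77e-06) with no overlap, at the lowest level of all members. TNFRSF10B measured 328.7, 334.5, 324.2 and 326.0 CPM in control and 318.3, 321.9, 313.4 and 309.6 CPM in knockdown. Every knockdown library was below every control library, but the difference was small and not called (log2 -0.06, SE 0.029, edgeR adjusted p = 0.112).

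Both further receptors come from a second list of p53 targets. TNFRSF10D, a decoy with a truncated death domain, measured 30.6, 29.8, 31.0 and 32.3 CPM in control and 66.1, 67.2, 66.6 and 69.1 CPM in knockdown libraries. Its rise of 2.18-fold (log2 1.12, SE 0.041, edgeR adjusted p = 5.21e-19) exceeded that of every member. TNFRSF10A, the death receptor DR4, rose by 0.20 on the log2 scale (SE 0.044). The log2 ratio to TNFRSF10B was 1.17 higher in knockdown for TNFRSF10D and 0.71 higher for TNFRSF10C. The exact two-sided permutation test gave p = 0.0286 for each, also after adjustment over the 3 gene pairs. That is the smallest possible value, and these pairs were chosen after their values were seen, so it adds no support. These receptor genes are similar in sequence, and no source used here says how reads matching several genes were counted, so the split between them is uncertain.

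**Figure D3:**
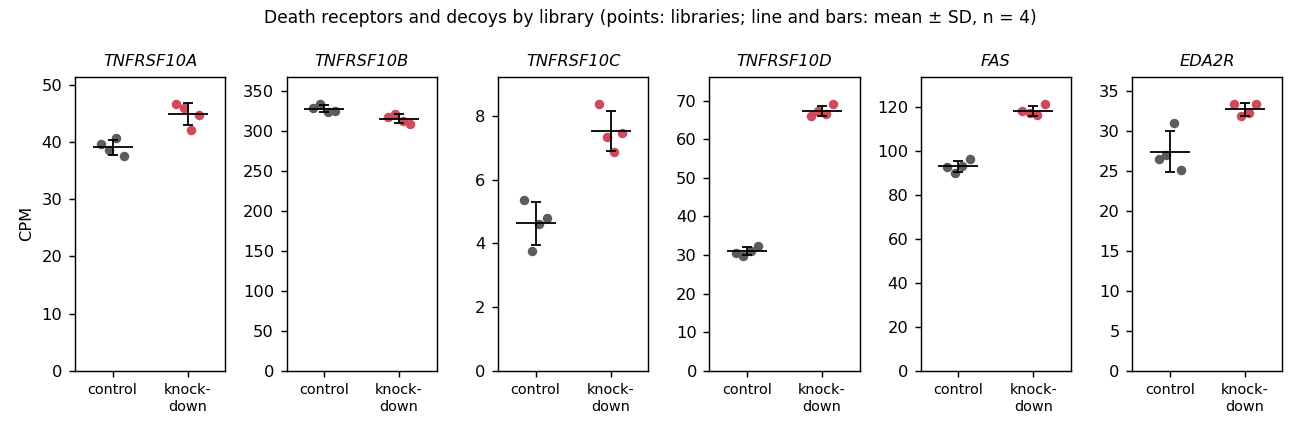
CPM (y axis, from 0) of the TRAIL receptors TNFRSF10A to TNFRSF10D and of FAS and EDA2R in the 4 control and 4 knockdown libraries, as points with mean ± SD. TNFRSF10D moves from about 31 to 67 CPM, while TNFRSF10B lies slightly lower in knockdown libraries.

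All 4 genes of DNA repair and nucleotide supply rose, against 25.2% called higher over all genes tested. DDB2, which recognises ultraviolet lesions, measured 77.1, 76.4, 80.8 and 78.0 CPM in control and 122.1, 118.4, 117.7 and 115.3 CPM in knockdown libraries. The gap between the groups was wide (1.52-fold, log2 0.60, SE 0.034, edgeR adjusted p = 9.17e-15). XPC, which starts nucleotide excision repair with it, measured 76.1, 75.5, 81.2 and 77.2 CPM in control and 113.8, 111.1, 102.3 and 111.1 CPM in knockdown libraries. Its rise was 0.50 on the log2 scale (SE 0.038, edgeR adjusted p = 3.99e-12). RRM2B, the p53-induced subunit of ribonucleotide reductase, rose by 0.37 (SE 0.037), and POLH, the polymerase eta that copies past lesions, by 0.15 (SE 0.036). XPC overlaps LSM3 and POLH overlaps GTPBP2 on the opposite strand, with 52.1% and 67.4% as many counts, so their values carry the same uncertainty as FAS. LSM3 was not called (log2 -0.04) and GTPBP2 fell (log2 -0.18).

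The metabolic and autophagy group held the largest rise and the only fall. TP53I3, a quinone oxidoreductase linked to reactive oxygen, measured 54.7, 58.6, 63.9 and 63.5 CPM in control and 107.7, 102.1, 109.0 and 105.2 CPM in knockdown libraries. It rose 1.76-fold, the largest fold of the 36 members (log2 0.82, SE 0.042, edgeR adjusted p = 4.02e-15). SPATA18, a protein of mitochondrial quality control, measured 44.4, 41.3, 43.0 and 42.9 CPM in control and 66.7, 68.9, 67.0 and 68.5 CPM in knockdown. Its libraries were tight in both groups (1.58-fold, log2 0.66, SE 0.038, edgeR adjusted p = 1.57e-14). FDXR, the mitochondrial reductase that passes electrons to ferredoxin, measured 55.6, 56.3, 57.7 and 58.8 CPM in control and 86.5, 81.7, 87.3 and 85.2 CPM in knockdown. It rose 1.49-fold (log2 0.58, SE 0.037, edgeR adjusted p = 1.11e-13).

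CMBL, a hydrolase, rose by 0.43 on the log2 scale (SE 0.035), and SESN1, a sestrin that restrains mTORC1, by 0.21 (SE 0.038). DRAM1, a lysosomal membrane protein that promotes autophagy, went the other way. It measured 306.6, 298.4, 305.8 and 300.6 CPM in control and 243.4, 241.0, 248.4 and 248.4 CPM in knockdown libraries, 81.0% of control. The groups did not overlap (log2 -0.30, SE 0.030, edgeR adjusted p = 8.66e-10). TIGAR, which lowers glycolytic flux, was not called at 69.2 ± 5.57 and 68.9 ± 3.5 CPM (SD, n = 4, log2 -0.01, SE 0.052). A same-strand transcript, ENSG00000285901, shares TIGAR exons and holds 31.0% as many counts. It was called higher (log2 0.34, edgeR adjusted p = 5.58e-05), and how reads in the shared exons were divided is not known.

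Of the 3 secreted and surface proteins, KITLG and CD82 rose, beside 25.2% called higher over all genes tested. KITLG, the ligand of the receptor KIT, measured 75.7, 80.2, 87.0 and 77.7 CPM in control and 109.4, 115.7, 111.2 and 121.0 CPM in knockdown libraries. The rise was 1.43-fold without overlap (log2 0.52, SE 0.041, edgeR adjusted p = 3.73e-11). CD82, a tetraspanin known as a suppressor of metastasis, rose only by 0.10 in log2 terms, with overlapping groups (SE 0.033, edgeR adjusted p = 0.0135). Its call was lost without knockdown replicate 1 (edgeR adjusted p = 0.0677). GDF15, a stress cytokine of the TGF-beta superfamily, measured 532.1, 472.6, 481.5 and 491.7 CPM in control and 490.5, 462.7, 486.0 and 465.8 CPM in knockdown. These groups overlapped, and the gene was not called (log2 -0.05, SE 0.035, edgeR adjusted p = 0.197).

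The members that did not rise were mostly those with the highest levels per kilobase of exon in control cells. Per kilobase of exon, CDKN1A had the highest mean control level (322.9 CPM per kb), followed by GDF15 (236.9), PLK2 (112.0), CCNG1 (75.3), CD82 (73.5), DRAM1 (72.4) and TNFRSF10B (63.6). Of these 7, 2 rose, 1 fell and 4 were not called. Of the other 29, between 2.48 and 55.4 CPM per kb, 28 rose, and TIGAR was not called. CDKN1A, at the top of the order of levels, was the ninth in the order of log2 changes. The order depends on exon length. Without that scaling MDM2, which rose, had 702.3 CPM in control, above PLK2 (534.2 CPM) and GDF15 (494.5 CPM). The division into 7 and 29 members was made after the values were seen and has no test.

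**Figure D4:**
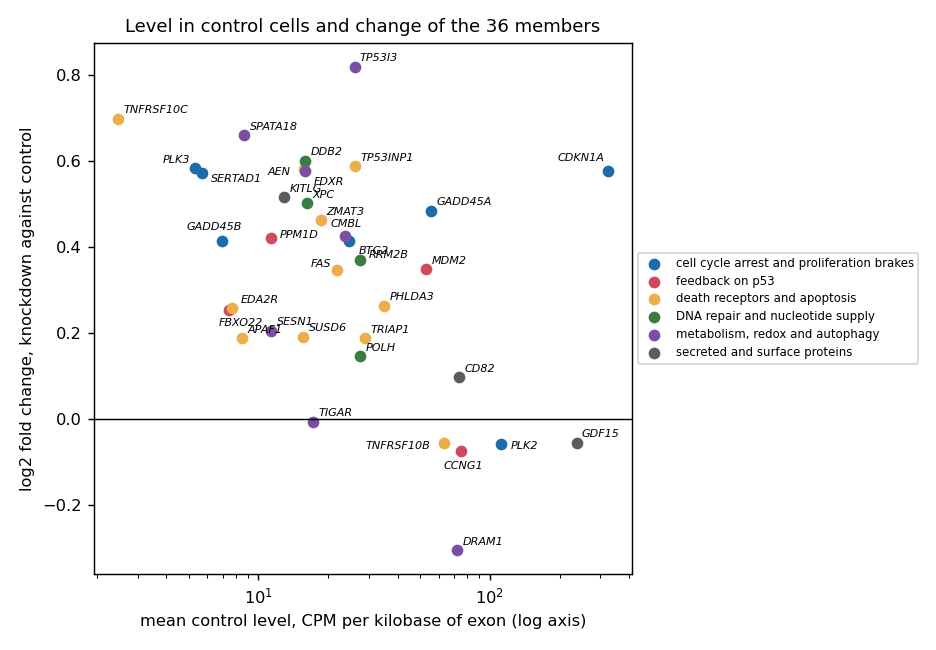
Mean control level in CPM per kilobase of exon (x axis, log scale) against log2 fold change (y axis) for the 36 members, coloured by role. Of the 7 members at the right, CDKN1A and CD82 lie above 0, and among the other 29 TIGAR alone lies below it, at -0.01.

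Members with a promoter match lay across most of the range of changes. Those with a match were DDB2 (log2 0.60), AEN (0.58), FDXR (0.58), MDM2 (0.35), FAS (0.35), SESN1 (0.21) and GDF15 (-0.05). DDB2 has the fewest mismatches of them and the highest value, and GDF15 was not called. Outside the members, 180 tested genes had a match, and 65 of them were called higher (36.1%), against 26.7% of 11502 tested genes with a window and no match. The median log2 change was 0.08 with and -0.007 without a match. With at most 2 mismatches, 22 of 44 such genes were called higher (50%), and with at most 4 the percentage was 31.7. These are descriptions with no test. The limit on mismatches was chosen after seeing the data.

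Of 21 tested genes that regulate p53, 8 rose, 5 fell and 8 were not called, with a median log2 change of 0.06. These shares, 38.1% higher and 23.8% lower, stand against 25.2% and 25.9% over all genes tested, and nothing particular to the list is read from them. TP53BP1, a scaffold at DNA breaks, rose by 0.28 (SE 0.033). The acetyltransferase gene CREBBP rose by 0.25 (SE 0.039), and PPP1R13B, the p53 cofactor ASPP1, by 0.38 (SE 0.062). TP53BP2, which encodes the related cofactor ASPP2, fell by 0.27 (SE 0.031), and the damage kinase gene ATR fell by 0.39 (SE 0.049). CHEK1, the checkpoint kinase that ATR activates, fell by 0.23. MDM4, the partner of MDM2, was not called (log2 -0.11, SE 0.058, edgeR adjusted p = 0.128). It was called lower without control replicate 1 (edgeR adjusted p = 0.0408) or without knockdown replicate 2 (0.015).

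A second list of p53 targets also mostly rose, but with a larger share of falls than the members. Of 29 tested, 21 rose, 4 fell and 4 were not called, with a median log2 change of 0.34. These shares were 72.4% higher and 13.8% lower. Among the members they were 83.3% and 2.78%, and over all genes tested 25.2% and 25.9%. BBC3, the BH3-only killer PUMA, rose from 31.1 ± 0.667 to 45.6 ± 1.90 CPM (log2 0.55, SE 0.045), and PMAIP1, which encodes NOXA, by 0.40 (SE 0.034). BAX, the effector that opens the outer mitochondrial membrane, rose by 0.18 (SE 0.033). PIDD1, a scaffold for caspase-2, rose by 0.71 (SE 0.042), and E2F7, a repressor of E2F targets, by 0.51 (SE 0.034). The falls included IGFBP3, which binds insulin-like growth factors, from 529.1 ± 7.79 to 329.9 ± 13.9 CPM (log2 -0.68, SE 0.032). EI24, a protein of the endoplasmic reticulum, fell by 0.51 (SE 0.032), and TRIM22, an interferon-induced ubiquitin ligase, by 0.13 (SE 0.032).

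Mitotic genes fell alongside. Of 20 listed genes of mitosis known to be lowered through p21 and DREAM, 19 fell and 1 rose, with a median log2 change of -0.65. Over all genes tested, 25.9% were called lower and 25.2% higher. CCNB1, cyclin B1, went from 116.7 ± 4.71 to 61.5 ± 1.41 CPM. The kinase genes PLK1 and AURKA had log2 changes of -1.21 and -1.03. MYBL2, a transcription factor of the cell cycle, rose by 0.19 (SE 0.048) with overlapping groups. The median of this list against the control mean ran from -0.78 to -0.51 across the knockdown libraries. Knockdown replicate 4 had the lowest value there, whereas its median over the p53 targets was the second highest.

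Stress programmes that share members with p53 were set beside it. ATF4, the factor of the integrated stress response, also acts on genes such as GADD45A, TNFRSF10B and GDF15. Of 12 tested ATF4 and stress response genes, 9 rose and 3 were not called (median log2 0.27). The rises included the pseudokinase gene TRIB3 (log2 0.51, SE 0.047), the glutathione-degrading enzyme gene CHAC1 (log2 0.64, SE 0.090) and DDIT4, an inhibitor of mTORC1 (log2 0.34, SE 0.045). Of 14 tested immediate early genes, 3 rose, 4 fell and 7 were not called (median log2 -0.02). Those shares, 21.4% higher and 28.6% lower, are close to the 25.2% and 25.9% over all genes tested. JUN rose by 0.38 (SE 0.033), while IER3, a survival factor, fell by 0.46 (SE 0.032), FOSL1 by 0.32 (SE 0.036) and MYC by 0.20 (SE 0.050). The other 2 rises were uncertain. FOS, below 1 CPM in every library, measured higher by 1.04 in log2 terms (SE 0.371). Its edgeR adjusted p of 0.0198 became 0.0997 without control replicate 4, 0.0986 without knockdown replicate 4 and 0.0564 without control replicate 1, and the DESeq2 adjusted p was 0.065. EGR1 (log2 0.28, SE 0.118, edgeR adjusted p = 0.047) lost its call without any 1 of control replicates 2 and 4 and knockdown replicates 1, 2 and 4 (edgeR adjusted p from 0.0638 to 0.163), and with DESeq2 (adjusted p = 0.108).

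**Figure D5:**
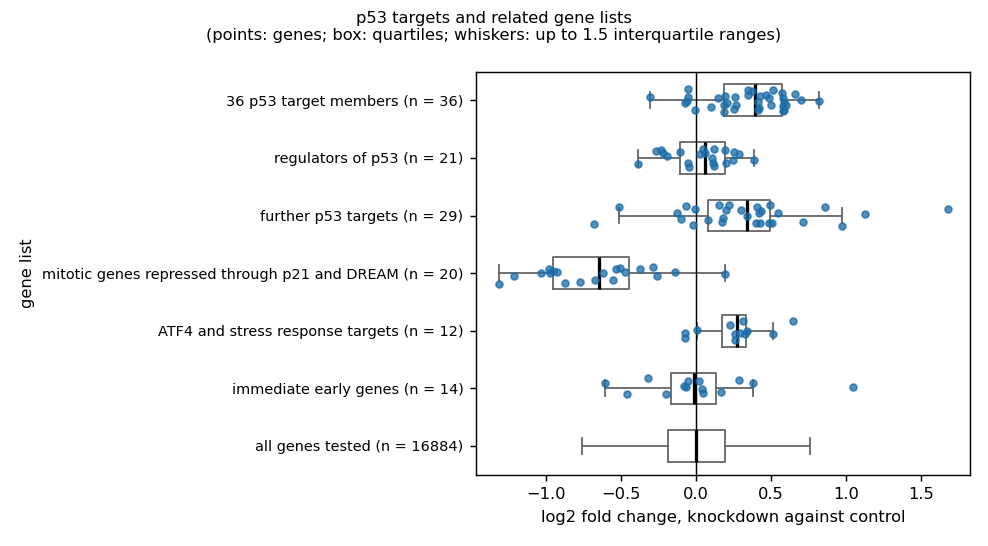
Log2 fold change of ATOH8 knockdown against control (x axis) for genes of each list (points) with boxes of median and quartiles, beside all 16884 genes tested. The members and the second list of p53 targets lie mostly above 0 (medians 0.39 and 0.34), and the mitotic genes mostly below it (median -0.65).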

How the data were processed

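The values are gene counts as the authors deposited them, 1 column per library. The submitters' processing notes list the tools STAR, featureCounts, FastQC and DESeq2 and the build hg19. Versions, annotation, strand setting and treatment of ambiguous reads: not given in the sources used here. Of 60609 rows, 1 with a missing cell and 44 Y-chromosome copies of pseudoautosomal genes, all without counts, were left out. Symbols came from a gene name table for 60295 genes and from GENCODE 29 for 250. Genes were filtered with filterByExpr, scaled by TMM and compared with edgeR 4.0.16 (robust quasi-likelihood F test, R 4.3.3), with Benjamini-Hochberg adjustment over all genes tested. The SE is the absolute log2 change divided by the square root of F. Exon lengths are merged GENCODE 29 exons. The test script was tested on simulated data. It recovered 67 of 100 genes changed 1.3-fold and 87 of 100 changed 2-fold, in either direction. Of its calls, 6.67% were genes left unchanged. Only the genes counted above were changed among the 16657 tested there, whereas 51.1% of tested genes were called in the real data. These shares therefore do not describe the sensitivity of the real comparison.

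The members and lists were chosen with earlier results of these data known. Values per library are given for members called with an absolute log2 change of at least 0.5, for CDKN1A, MDM2, GADD45A and BTG2, and for called members against the majority. Those of PLK2, TNFRSF10B, GDF15 and TNFRSF10D were added after their values were seen. From other lists up to 3 rises and 3 falls with the smallest adjusted p are named, besides BAX, BBC3, PMAIP1 and MDM4. TNFRSF10A was added to complete the receptors. Chi-square per gene between libraries of a group was 1.9 to 4.48, so none was a duplicate. Separate cultures are not stated, so the p-values reflect differences among these 8 libraries, possibly technical ones. Alternatives were DESeq2 size factors, the DESeq2 1.42.0 Wald test, other filters on low counts, the replicate number as a block and the omission of each library. Some planned results are not reported here.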

Additional observations from a re-analysis of the deposited data

Results flagged for a closer look

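Among 74 groups of 4 values (the 36 members and ATOH8 in each condition), 4 held a library whose gap to the others exceeded Dixon's 95% critical value, and chance gives about 1 in 20. CDKN1A in knockdown replicate 2 was at 1414 CPM against 1484 to 1487 CPM in the other 3 knockdown libraries, still above every control. TRIAP1 in knockdown replicate 1 was at 40.6 CPM against 48.9 to 50.6 CPM, within the control range. APAF1 in control replicate 2 was at 69.1 CPM against 66.3 to 66.6 CPM. CMBL in control replicate 2 was at 75.7 CPM against 79.2 to 79.8 CPM. No library was far from the others in more than 2 of these genes.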

How the results depend on the processing

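Under 13 alternatives, 33 of the 36 members kept their side of the threshold in every one, and the exceptions were PLK2, CCNG1 and CD82. No called member reversed its direction. TIGAR, never called, changed sign, with log2 values from -0.057 to 0.034 when 1 library was left out. The count of members called higher was 29 or 30 throughout, and their median log2 change ran from 0.37 to 0.40. With the replicate number as a block, genes called higher were 4336 and genes called lower 4466, against 4253 and 4372 without it. Same-numbered libraries deviated together little (correlations from 0.00143 to 0.0574), and not every library correlated best with its own number, so the numbers were not taken as pairs. Under the block, 2 members were called lower in place of 1, the addition being CCNG1 (edgeR adjusted p = 0.0345), which made 1 lower call in the p53 feedback group, 1 ATF4 list gene was called lower in place of 0, and MDM4 was called lower (edgeR adjusted p = 0.0435). With DESeq2 1 immediate early gene was called higher in place of 3. Leaving out 1 library gave 1 to 2 members called lower, 0 to 1 called lower in the proliferation, feedback and ATF4 groups, 1 to 2 called higher among secreted and surface genes, and 1 to 3 immediate early genes called higher. With at most 2 mismatches 4 members held a p53 consensus match, and with at most 4 there were 9. Depth limits TNFRSF10C most among the members.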
